A study of Mus musculus with 4 samples.

Results

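Transcripts of 46 genes of mitosis, the kinetochore and the spindle were followed in 4 libraries labelled total RNA-seq of mouse Th17 cells, a helper T cell type named for its cytokine interleukin-17. The members were named by symbol and matched to the gene identifiers of the count files, and 46 of 46 were found among the 50600 genes listed. All libraries belong to 1 group, primary Th17 cells of strain C57BL/6NJ prepared by a CD4+ T cell differentiation protocol, and they are biological replicates 1 to 4. No untreated, undifferentiated or resting cells were included, so the levels below have no control group, and the labels give age as unknown and sex as not collected.

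In a dividing cell, cyclin A and cyclin B activate the kinase CDK1, condensin packs the chromosomes, and kinetochores attach them to the spindle. The spindle checkpoint holds the anaphase-promoting complex until every kinetochore is attached, after which securin and cyclin B are destroyed, separase cleaves cohesin and the cell divides at the spindle midzone. Most of these genes are transcribed late in the cycle, through promoters with a CHR element (cell cycle genes homology region) bound by MuvB complexes and with CCAAT boxes bound by NF-Y, whereas genes of DNA replication come on earlier through E2F factors. Activated T cells are known for fast division.

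Libraries held 37025016, 24696730, 32766291 and 36798195 counted fragments in replicates 1 to 4. The T cell genes Cd3e, Cd4 and Trac averaged 127, 237 and 1289 TPM (fragments per exon length, scaled to sum to 1000000 in a library), and the Th17 cytokine genes Il17a and Il17f averaged 20.02 and 694 TPM. Of 22 markers of other cell types, 10 had no fragment and 4 reached 1 TPM in every library, with sums of 23.5, 20.5, 25.8 and 22.8 TPM and the highest averages in Cd8b1 (7.32 ± 1.16 TPM) and Cd68 (5.24 ± 1.02 TPM, SD, n = 4). The labels give 1 donor identifier for all libraries, yet Xist had 186 and 161 TPM in replicates 1 and 2 against 0.687 and 0.721 TPM in replicates 3 and 4, and the Y-linked Ddx3y had 0.442 and 0.446 TPM against 88.6 and 83.2 TPM. By these genes replicates 1 and 2 had a female pattern and replicates 3 and 4 a male pattern, so the libraries do not all share the same animal. Whether the libraries within each pair came from separate animals is not stated beyond a biosample of its own for each library. The spread between libraries may therefore in part be technical.

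The regulatory sequence that the members share was read first. RefSeq promoter windows (build GRCm38.p6, 250 bases before to 50 after the transcript start) were found for 38 of the 46 genes, in 41 windows. The CHR element, searched as TTTGAA on both strands, was in the windows of 28 of 38 members (73.7%), against 13.9% of 8732 tested genes with a window. By window, that was 75.6% of the members' windows and 17.9% of all 32851 in the table. The NF-Y box, searched as CCAAT on both strands, was also in 28 of 38 members (73.7%), against 43.6% of tested genes and 37.4% of all windows. It was in 23 of 36 DNA replication genes (63.9%). Both motifs stood in the windows of 25 members (65.8%), against 5.90% of tested genes and 6.95% of all windows. In a wider list of other mitosis genes, TTTGAA was in 36 of 87 with a window (41.4%), CCAAT in 51 (58.6%) and both in 24 (27.6%), between the members and the tested genes. A match is a description of the letters and not a shown binding site.

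The 100 bases before the transcript start are printed for 7 members whose spread between libraries or level is described below, chosen after their values were seen. All but Mybl2 were taken from members with a single window and a CHR element within 60 bases before the start. Mybl2 was added as a member without one. The CHR elements in these stretches therefore follow from the choice and are not a result. All run 5′ to 3′ on the gene's strand, and capitals mark CHR elements (TTTGAA, or TTCAAA on the other strand) and NF-Y boxes (CCAAT, or ATTGG on the other strand).
Top2a (chr11:99024190-99024289, minus strand): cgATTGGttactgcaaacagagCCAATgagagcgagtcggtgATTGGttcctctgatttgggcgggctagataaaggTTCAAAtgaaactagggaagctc
Cdk1 (chr10:69352913-69353012, minus strand): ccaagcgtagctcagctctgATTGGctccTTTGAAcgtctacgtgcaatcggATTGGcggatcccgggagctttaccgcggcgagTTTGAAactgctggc
Cdc20 (chr4:118437344-118437443, minus strand): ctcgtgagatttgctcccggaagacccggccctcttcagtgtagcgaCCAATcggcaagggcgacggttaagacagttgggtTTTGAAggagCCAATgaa
Espl1 (chr15:102296193-102296292, plus strand): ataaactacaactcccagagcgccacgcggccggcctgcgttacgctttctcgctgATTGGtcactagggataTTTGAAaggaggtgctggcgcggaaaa
Kif11 (chr19:37376282-37376381, plus strand): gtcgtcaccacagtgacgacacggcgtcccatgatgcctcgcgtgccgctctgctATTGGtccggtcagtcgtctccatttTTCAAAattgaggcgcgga
Ncapg (chr5:45669825-45669924, plus strand): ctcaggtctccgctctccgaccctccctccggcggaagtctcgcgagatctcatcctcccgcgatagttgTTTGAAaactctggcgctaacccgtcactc
Mybl2 (chr2:163054535-163054634, plus strand): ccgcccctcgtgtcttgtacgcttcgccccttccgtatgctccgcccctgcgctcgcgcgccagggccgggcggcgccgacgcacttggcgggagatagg
Top2a, Cdk1, Cdc20, Espl1 and Kif11 each have a CHR element downstream of an NF-Y box in these bases. Ncapg has the CHR element alone here, and Mybl2 has neither motif, also in its full window.

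Matches to the CHR element lay close to the start. In 26 of 38 members (68.4%) a match began within 50 bases of the transcript start, against 31.0% of the wider mitosis list and 3.65% of tested genes. This cut of 50 bases was not among the planned promoter features. An NF-Y box beginning at most 60 bases upstream of a CHR element was in 20 members (52.6%), against 18.4% of the wider mitosis list and 1.91% of tested genes, and this window was chosen after the positions were seen. In the windows of DNA replication genes, TTTGAA was in 4 of 36 (11.1%), and the E2F motif TTTCGCGC was in 7 of 36 (19.4%), against 1 of 38 members (2.63%). Another E2F motif, TTTGGCGC, was in 0 of 38 members and 5 of 36 replication genes (13.9%), and these E2F motifs were in 0.323% and 0.514% of all windows.

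**Figure D1:**
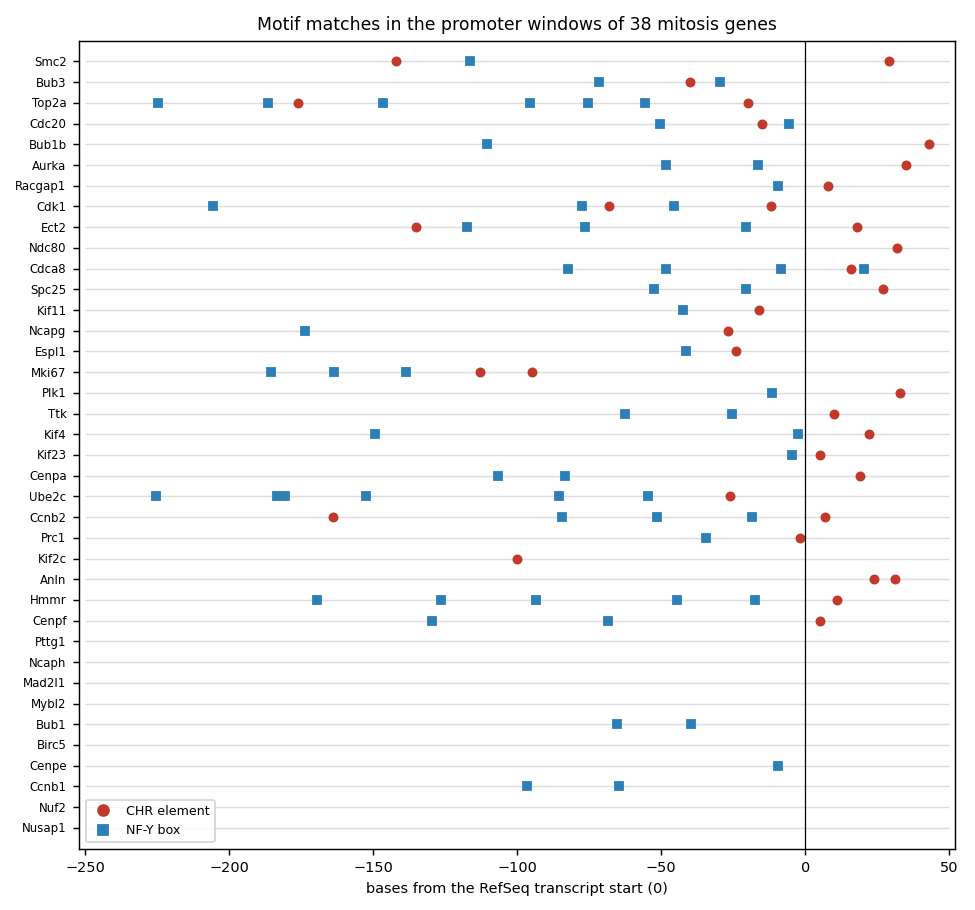
Positions of CHR elements (circles) and NF-Y boxes (squares) in the promoter windows of 38 mitosis genes, with distance in bases from the RefSeq transcript start on the x axis and 1 gene a row, genes with a CHR element first and by falling level. For Bub3, Ect2 and Prc1, which have more than 1 window, the first by coordinate is drawn, and 28 of 38 rows hold a CHR element.

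Transcripts of the mitosis genes were present at low levels. In every library 41 of 46 members reached 1 TPM, against 22.1% of all genes listed. Only 12 members reached 10 TPM in every library (15.3% of all genes) and 1 member, Smc4, reached 100 TPM (3.84% of all genes). The median member averaged 4.83 TPM, against 74.0 TPM for the median of 45 DNA replication genes and 26.0 TPM for the median of the 11170 genes at 1 TPM or more in every library. All members together made up 589, 631, 585 and 666 TPM in replicates 1 to 4. Without scaling by exon length, they held 0.0945% ± 0.00626 of fragments (SD, n = 4). In such bulk RNA, fewer cells in mitosis and less RNA per cell cannot be told apart.

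Within each library, the median log2(TPM + 1) of the members was 2.41, 2.66, 2.46 and 2.74, and that of the DNA replication list was 6.17, 6.29, 6.14 and 6.32. The difference was -3.66 ± 0.08 (SD, n = 4), many times its spread between libraries. No test accompanies it, because flipping signs exactly over 4 libraries allows no two-sided p below 0.125.

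**Figure D2:**
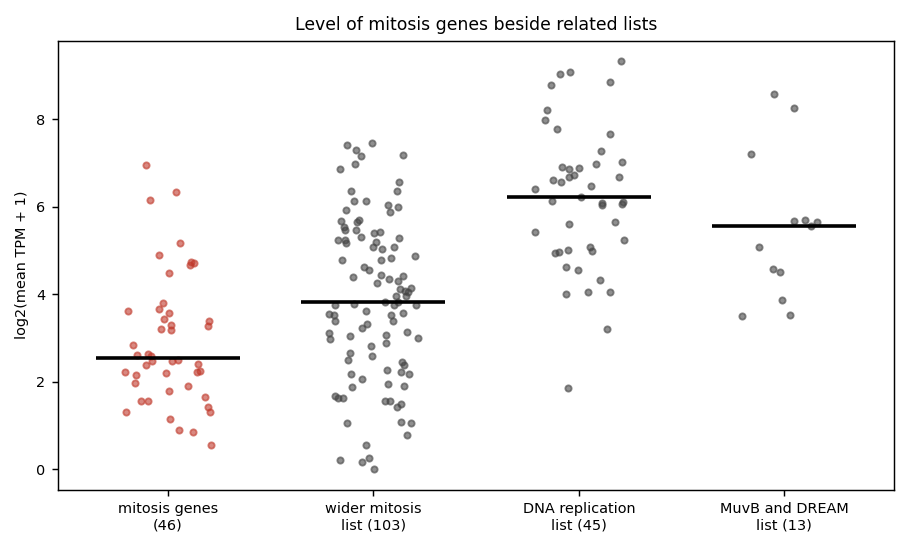
Level of each gene as log2(mean TPM + 1) over 4 libraries, for mitosis genes and for 3 related lists, with bars at the list medians. The median mitosis gene averaged 4.83 TPM, below the medians of the wider mitosis list (13.2 TPM), the DNA replication list (74.0 TPM) and the MuvB and DREAM list (46.2 TPM).

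By summed exon length, chromosome structure had the highest median of the roles, 28.4 TPM. Smc4, a condensin ATPase (ENSMUSG00000034349, chr3:69004738-69034623, mm10), had 119.8, 125, 119 and 129 TPM in replicates 1 to 4. Its partner ATPase Smc2 had 76.2, 78.7, 78.9 and 83.0 TPM. Both condensin complexes contain this pair, and Smc4 stood above Smc2 in every library, by a geometric mean ratio of 1.55. Ncaph, the kleisin of condensin I, had 21.1, 24.2, 18.8 and 22.03 TPM, and Ncapg, its HEAT-repeat subunit, had 3.69, 3.80, 4.51 and 5.18 TPM. Subunits of 1 complex therefore differed widely in transcript level: Smc4 exceeded Ncapg 28.9-fold and Ncaph exceeded Ncapg 5.04-fold, in 4 of 4 libraries. Top2a, the topoisomerase that untangles sister DNA (ENSMUSG00000020914, chr11:98992943-99024189), had 32.5, 35.7, 31.5 and 41.2 TPM. Mki67, which coats mitotic chromosomes and is the Ki-67 marker of cycling cells, had 3.22, 3.72, 3.69 and 4.36 TPM.

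Spindle checkpoint and anaphase genes ran over a wide range, with a median of 13.02 TPM. Bub3, which docks checkpoint proteins on kinetochores, had 68.2, 71.7, 69.7 and 72.0 TPM and the smallest spread of all members (coefficient of variation, CV, 2.56%). Cdc20, the activator of the anaphase-promoting complex and target of the checkpoint, had 31.3, 28.4, 26.0 and 29.9 TPM. Bub1b, the checkpoint protein BubR1, had 23.2, 25.2, 24.5 and 28.2 TPM, and Bub1, its kinase relative, had 4.16, 4.26, 4.16 and 5.77 TPM. Bub1b thus exceeded Bub1 in every library, 5.55-fold on average, and the high Bub1 value belonged to replicate 4. Securin, encoded by Pttg1, had 24.9, 23.3, 23.5 and 26.1 TPM, while Espl1, the separase that securin blocks, had 3.62, 4.34, 3.42 and 5.36 TPM. Mad2l1, which binds Cdc20 in the checkpoint complex, averaged 13.02 ± 0.625 TPM. The checkpoint kinase Ttk had 2.67, 2.69, 2.52 and 3.71 TPM, again with replicate 4 apart from the rest. Ube2c, the ubiquitin-conjugating enzyme of the anaphase-promoting complex, was lowest of these genes, with 1.20, 2.15, 1.83 and 2.54 TPM.

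Among the drivers of mitotic entry, Cdk1 (ENSMUSG00000019942, chr10:69335146-69352938) had 9.46, 11.7, 10.1 and 12.0 TPM. Cyclin A2, Ccna2 (ENSMUSG00000027715, chr3:36564865-36572150), had 6.43, 9.42, 7.45 and 11.6 TPM, and the ranges of Cdk1 and Ccna2 overlapped. Of the B cyclins, Ccnb1 had 3.20, 4.21, 2.67 and 3.65 TPM, and Ccnb2 had 1.74, 2.05, 2.03 and 0.958 TPM. Ccnb2 rested on only 98 fragments in all libraries together, and its low value was in replicate 4. Ccnb1 shared 23.4% of its 50-base words, matched on either strand, with transcripts of other genes, its pseudogene Ccnb1-ps among them, so its count is uncertain. Mybl2, the B-Myb subunit that joins MuvB, had 7.36, 7.84, 7.41 and 10.03 TPM, and 19.3% of its words were found in other genes' transcripts. Foxm1, the forkhead factor that drives late cell cycle genes, averaged 5.04 ± 0.529 TPM.

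The mitotic kinases and the chromosomal passenger complex lay in the same range. Incenp, the scaffold of the passenger complex, had 25.0, 25.9, 25.3 and 27.0 TPM. Its partners were lower in every library: Cdca8 (borealin) averaged 8.83 ± 1.01 TPM, and the kinase Aurkb had 3.21, 5.51, 3.86 and 5.76 TPM. Birc5 (survivin) had 2.48, 5.37, 2.67 and 4.15 TPM, low in replicates 1 and 3 and high in replicates 2 and 4, with the largest CV of all members, 37.0%. Aurka, the spindle pole kinase, averaged 11.7 ± 0.782 TPM, and Aurka exceeded Aurkb 2.62-fold, in 4 of 4 libraries. Plk1, a kinase of mitotic entry and exit, had 3.80, 4.03, 2.87 and 3.96 TPM, and it shared 10.4% of its words with other genes, including the pseudogene Plk-ps1. Other members with over 10% shared words were Ube2c (16.0%), Ncapg (11.8%, with Lcorl), Ccna2 (11.4%, with Exosc9) and Cdc20 (10.6%). Words were matched on either strand, whereas fragments were counted by strand. None of these other members had exon bases overlapped by another gene on its own strand. How far the sharing alters their counts was not tested.

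Centromere and kinetochore genes had a median of 3.57 TPM. Ndc80, the microtubule-binding subunit of the outer kinetochore, had 7.76, 10.2, 8.13 and 11.9 TPM, higher in replicates 2 and 4. Its complex partners Spc24, Spc25 and Nuf2 averaged 8.12, 5.20 and 2.72 TPM. Cenpa, the centromeric histone H3 variant, had 2.02, 2.00, 1.64 and 2.06 TPM, with replicate 3 below the rest. The kinesin Cenpe, which moves chromosomes to the spindle equator, averaged 3.57 ± 0.289 TPM. Cenpf, a large kinetochore protein (ENSMUSG00000026605, chr1:189640606-189688086), was the lowest member by summed exon length, with 0.440, 0.486, 0.503 and 0.481 TPM.

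Spindle motors and assembly factors had the lowest median by summed exon length, 1.96 TPM. Tpx2, which activates Aurora A and nucleates microtubules, had 5.20, 6.45, 6.43 and 6.57 TPM, with replicate 1 below the rest. Kif11, the kinesin that pushes spindle poles apart, had 4.31, 5.27, 4.46 and 6.31 TPM, again highest in replicate 4. Kif4, a chromosome-bound kinesin, averaged 2.46 ± 0.386 TPM, and 14.5% of its words were shared with other genes, including Kif4-ps. Kif2c, which takes microtubules apart at centromeres, averaged 1.46 ± 0.213 TPM. Nusap1, a microtubule bundler, had 0.837, 0.874, 0.815 and 0.926 TPM. Hmmr, a spindle pole protein, had 0.778, 0.804, 0.647 and 1.01 TPM, so it passed 1 TPM in replicate 4 alone.

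Midzone and cytokinesis genes had a median of 3.40 TPM. Racgap1, one of the centralspindlin subunits, had 10.8, 12.0, 10.6 and 11.7 TPM, and its kinesin partner Kif23 had 1.85, 2.21, 2.22 and 2.37 TPM. Ect2, the exchange factor that centralspindlin recruits to activate RhoA, averaged 9.76 ± 0.954 TPM. Kif20a, a midzone kinesin, averaged 4.63 ± 0.592 TPM, and 25.2% of its words, read on either strand, matched transcripts of its neighbour Cdc23. Cdc23 lies on the opposite strand, and no exon base of Kif20a was overlapped by another gene on its own strand. Prc1, which crosslinks midzone microtubules, averaged 1.47 ± 0.240 TPM. Anln, the anillin of the contractile ring, had 0.973, 1.31, 1.18 and 1.35 TPM.

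**Figure D3:**
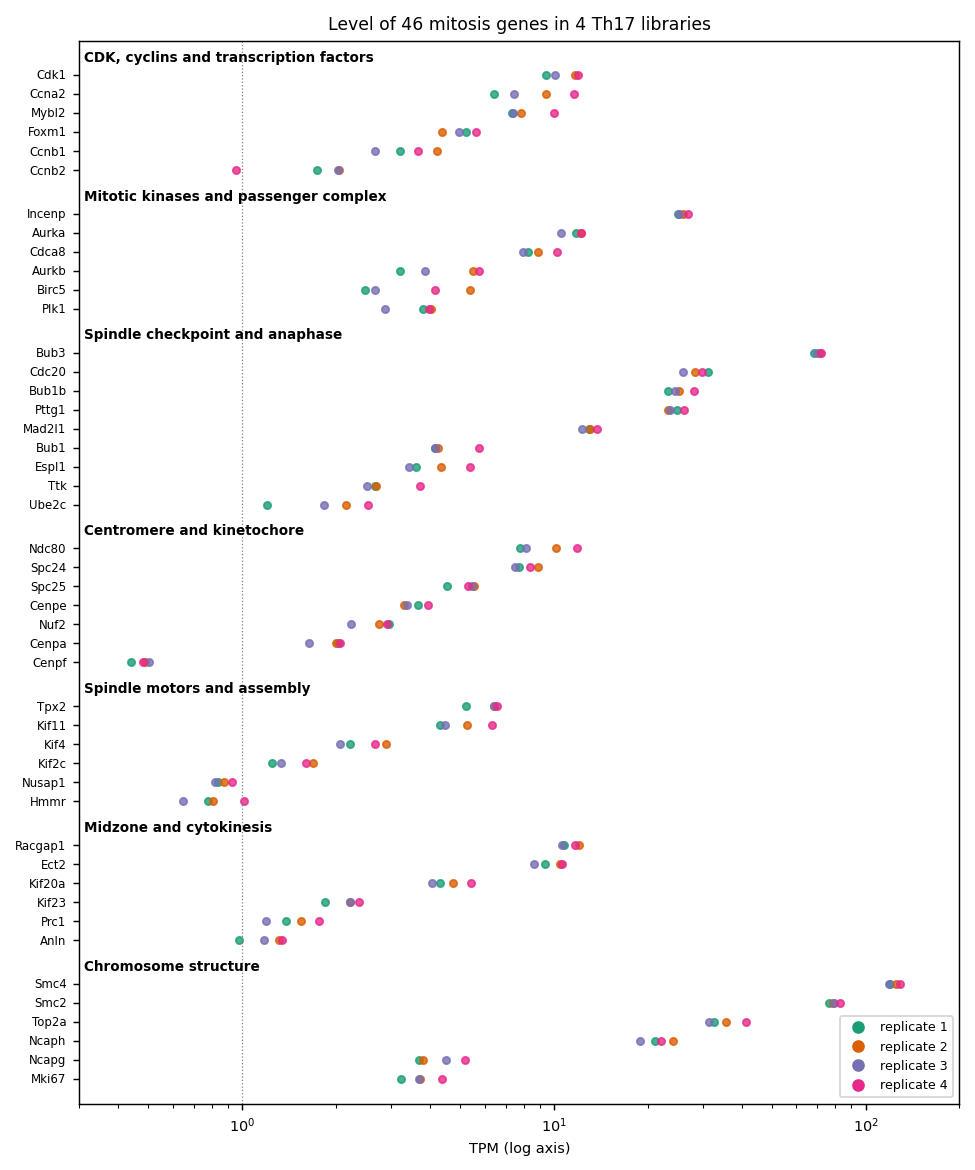
Level of each of the 46 mitosis genes in TPM (log axis) in the 4 Th17 libraries, by role, with 1 point per library and a dotted line at 1 TPM. By summed exon length Smc4, Smc2 and Bub3 lie highest, Cenpf lies lowest, and replicate 4 is the highest library for 33 genes.

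Levels between members depend on the length used. With the median length of each gene's protein-coding transcripts in place of its summed exons, an alternative chosen after seeing the data, the mean TPM moved by over 1.5 times for 11 members upwards and 14 downwards, of 46. Cenpa then averaged 13.7 TPM, Anln 6.79 TPM and Racgap1 42.9 TPM, and Ndc80 stood below Spc24 in every library. The ends of the order changed too: Bub3 was highest at 149 TPM, against 72.1 TPM for Smc4, and Nusap1 (0.484 TPM), Hmmr (0.506 TPM) and Ccnb2 (0.758 TPM) lay below Cenpf (1.10 TPM).

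Most members were highest in replicate 4, and nearly all were lowest in replicate 1 or 3. The measure was log2 CPM minus the gene's own mean over the 4 libraries. The median member stood at -0.11, 0.06, -0.13 and 0.14 in replicates 1 to 4, whereas the median of all 11847 genes tested was 0.00 in each. In replicate 4, 45 of 46 members were above their own mean, and Ccnb2 was the 1 member below, at -0.72. In replicate 2, 38 members were above their mean, against 9 in replicate 1 and 6 in replicate 3. Of all 11847 genes tested, 6059, 5978, 5923 and 5975 were above their mean in replicates 1 to 4. Replicate 4 was the highest library for 33 members (71.7%), against 23.2% of all genes tested. Replicates 1 and 3 were the lowest for 22 and 21 members (47.8% and 45.7%), against 24.0% and 25.3% of all genes. Xist was high in replicates 1 and 2, and replicate 2 was the shallowest library. The part of either in the movement was not tested.

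Related lists were described in the same way. The DNA replication list stood at -0.05, 0.02, -0.06 and 0.09, with 36 of 45 genes (80.0%) highest in replicate 4. The wider mitosis list, which holds 103 further genes of cohesin, the anaphase-promoting complex, the inner kinetochore and related machinery, stood at -0.05, 0.03, -0.03 and 0.08, with 51 of its 100 tested genes highest in replicate 4. The 13 genes of MuvB, DREAM and NF-Y stood at 0.01, 0.00, 0.00 and 0.00, with 5 of 13 highest there. Whether the mitosis and replication medians differ was not tested. By promoter, the median of the 28 members with a CHR element was -0.12, 0.08, -0.14 and 0.15, and that of the 10 members whose window lacks it was -0.05, 0.03, -0.13 and 0.12.

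**Figure D4:**
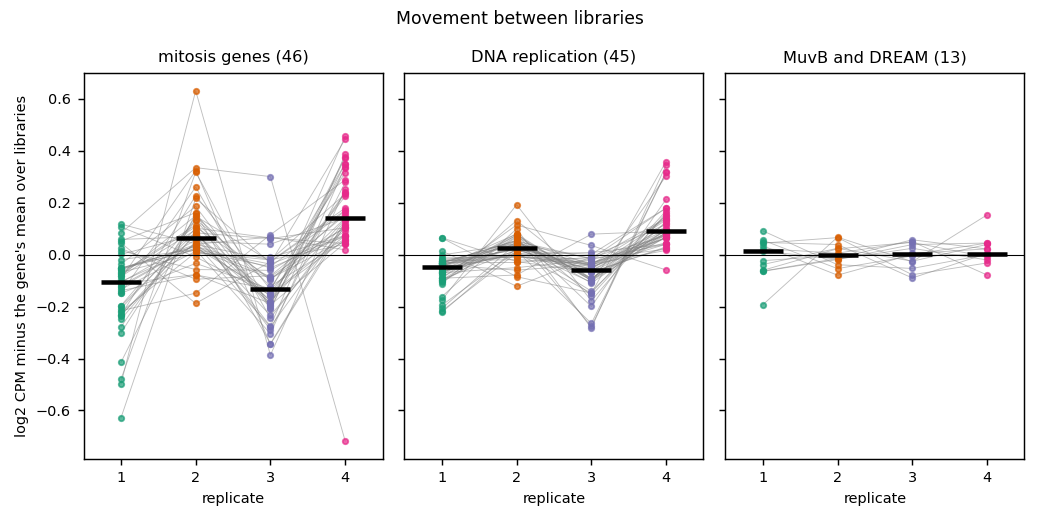
Movement between libraries, as log2 CPM minus the gene's mean over libraries, for mitosis genes, DNA replication genes and MuvB and DREAM genes, with 1 line per gene, points by replicate and black bars at the medians. The mitosis median lies at -0.11, 0.06, -0.13 and 0.14, and the MuvB and DREAM median lies at 0.01, 0.00, 0.00 and 0.00.

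A test of each gene's spread between libraries against genes of like abundance called few members. By edgeR's quasi-likelihood dispersion, with Benjamini-Hochberg adjusted p below 0.05 over 11847 genes, 2 of 46 members varied between libraries, against 0.304% of all genes. They were Top2a, with an adjusted p of 0.00421, and Ccna2, with an adjusted p of 0.0286 by the same edgeR test. Both were highest in replicate 4. The CV of Top2a was 12.3%, against 1.84% from counting alone, and that of Ccna2 was 26.3%, against 5.56%. At an unadjusted p below 0.05, 12 members (26.1%) were reached, against 5.69% of all genes. The share was 44.4% (20 of 45) in the DNA replication list, 19.0% in the wider mitosis list and 25.0% (3 of 12) among T cell and Th17 markers. The other 10 were Birc5 (edgeR unadjusted p of 0.000862, adjusted p of 0.148), Espl1, Aurkb, Ncaph, Ndc80, Mybl2, Kif11, Bub1b, Cdk1 and Ncapg. Over all members the CV ran between 2.56% and 37.0%, with a median of 11.8%, and for 20 of 46 it was above 2 times the counting CV. The same count was not made over all genes, so it does not set the members apart.

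The calls rest on replicate 4. Without it, 0 members were called by edgeR, against 15 of all 11889 genes then tested. At an unadjusted p below 0.05 there were 5 of 46 members and 588 of all genes. The edgeR adjusted p was then 0.808 for Top2a and 0.763 for Ccna2. Without replicate 1, Ccna2 was not called either (edgeR adjusted p of 0.192), and 1 member was called, against 31 of all genes.

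**Figure D5:**
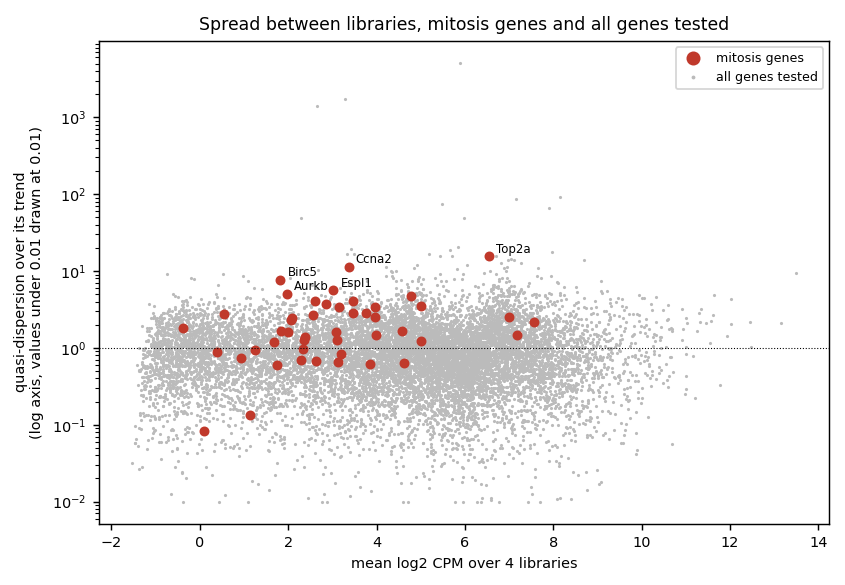
Spread between libraries as quasi-dispersion over its abundance trend (log axis) against mean log2 CPM, for mitosis genes (large points) and all 11847 genes tested (small points), with a dotted line at the trend. Genes with an unadjusted p below 0.01 are named, and of these Top2a and Ccna2 passed the adjusted threshold.

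Other cell cycle genes gave the levels a setting. In the wider mitosis list, cohesin subunits Rad21 and Smc1a averaged 174 and 169 TPM, Anapc5 of the anaphase-promoting complex 155 TPM and the kinetochore protein Zwint 145 TPM. At the low end Depdc1a averaged 0.164 TPM and Ccnb3 had no fragment. Depdc1b averaged 0.120 TPM, on only 3, 4, 4 and 4 fragments in replicates 1 to 4. In this list 1 of 100 genes was called variable by edgeR, Cdca5 (sororin, which protects cohesion), with 8.20, 12.9, 7.29 and 13.8 TPM and an adjusted p of 0.0458. The replication list had its highest levels in the helicase genes Mcm3, Mcm4, Mcm5 and Mcm6, at 641, 540.3, 525 and 463 TPM, and its lowest in Tyms, Ccne2 and Tk1, at 15.0, 8.19 and 2.62 TPM. In that list 5 of 45 genes were called variable, namely Cdc6, Uhrf1, Rrm2, Mcm10 and Lig1, and each was highest in replicate 4, as Top2a and Ccna2 were. Among the regulators, E2f4, Tfdp1, Rbbp4 and Nfyb averaged 378, 306, 146 and 51.1 TPM, and Lin54, Rbl2 and Lin9, the lowest, averaged 13.6, 10.4 and 10.4 TPM, with 0 of 13 genes called variable by edgeR and 0 at an unadjusted p below 0.05.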

How the data were processed

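The labels call the 4 Th17 libraries total RNA-seq but link a library protocol named for polyA+ RNA, so whether RNA without a polyA tail was kept is unclear. The file headers carry a tag in hours that the labels do not explain. The authors deposited fragment counts per gene, made with featureCounts 1.4.6-p4 over GENCODE M13 exons (paired ends, strand option 2) per the file headers, on build mm10 per the labels. An aligner version was not given in the sources used here. How fragments at several places were treated is not in the headers, so genes with near-identical copies may be undercounted. The deposited exon length is the union over isoforms, from which TPM was computed here.

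The test of spread between libraries used edgeR 4.0.16 under R 4.3.3 (filterByExpr, TMM, intercept only, robust prior, upper tail of F with 24.8 prior degrees of freedom), Benjamini-Hochberg adjusted over 11847 genes. In simulated data over 11717 genes, spread was given only to genes with many fragments, 100 at each SD. Of these it recovered 79% at a log2 SD of 0.25 and 100% at 0.5. There was 1 false call of 180. Recovery among genes with fewer fragments was not tested. These include Ccnb2 and Nusap1, and also Birc5 and Aurkb, with 468 and 517 fragments in all libraries together. Promoters came from RefSeq, and symbols from the GENCODE annotation for 50376 of 50600 genes. The members and lists were chosen with earlier results of these data known. Genes were named by a rule on level, role, spread and outlying libraries, and a marker that the rule names is not reported here. Python 3.11.15, numpy 2.4.6, pandas 2.3.3, limma 3.58.1 and DESeq2 1.42.0 were also used. Counting error is only part of the spread given.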

Additional observations from a re-analysis of the deposited data

Results flagged for a closer look

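Of 86 items looked at, namely genes and the summed TPM of each list, 5 genes had 1 library far from the other 3. Chance alone gives about 1 in 20, and 5 of 86 is near that share. Bub1 had 5.77 TPM in replicate 4, against 4.16 to 4.26 TPM in the other libraries. Ttk had 3.71 TPM in replicate 4, against 2.52 to 2.69 TPM. Cenpa had 1.64 TPM in replicate 3, against 2.00 to 2.06 TPM. Tpx2 had 5.20 TPM in replicate 1, against 6.43 to 6.57 TPM. Of the replication genes, Mcm4 had 562 TPM in replicate 4, against 531 to 536 TPM.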

How the results depend on the processing

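At a threshold of 5 TPM in every library, 20 members passed. A prior without robust estimation left 1 member called, Top2a at an edgeR adjusted p of 0.0454, and 17 of all genes. Ccna2 was lost there, at an edgeR adjusted p of 0.165. No filter on low counts gave 94 of all genes, with Birc5 at an edgeR adjusted p of 0.0132. Leaving out each replicate in turn gave 0 to 2 members called, and 15 to 37 of all genes. At an unadjusted p below 0.05 it gave 5 to 15 members and 588 to 706 of all genes. DESeq2 size factors, limma-trend and leaving out chromosomes X and Y changed no member's call. The summed TPM of the members was 741 without mitochondrial and ribosomal protein genes in the scaling and 662 with median protein-coding transcript lengths, which were chosen after seeing the data. The difference in median log2(TPM + 1) from the replication list was -3.88 with a pseudocount of 0.1, -3.28 as list means and -3.50 over genes at 1 TPM or more. With transcript lengths, the ratio of Ndc80 to Nuf2 was 0.953, of Ndc80 to Spc24 0.467 and of Ncapd3 to Ncapd2 0.755, each a mean above 1 by summed exon length. The last pair of ratios was below 1 in 4 of 4 libraries, but Ndc80 to Nuf2 stayed above 1 in 3 of 4. The cause of these changes was not tested. No paired analysis was possible because there was only 1 group. Low members such as Ccnb2 and Nusap1 rest on few fragments, which limits what their spread can show.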

Other observations

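Switches of mitotic entry were unevenly expressed, in genes of the wider mitosis list that were picked after their values were seen. Cdc25a, a phosphatase that activates cyclin-dependent kinases, averaged 49.7 ± 2.28 TPM, against 4.48 ± 0.211 TPM for Cdc25b and 1.95 ± 0.436 TPM for Cdc25c (SD, n = 4). The opposing kinases Wee1 and Pkmyt1 averaged 37.9 ± 1.33 and 43.0 ± 2.07 TPM. Hjurp, the chaperone that loads Cenpa at centromeres, averaged 49.4 ± 2.18 TPM and exceeded Cenpa 25.6-fold, or 6.33-fold with median protein-coding transcript lengths.

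An NF-Y box with a same-strand partner spaced 30 to 34 bases apart was found in the windows of 8 of 38 members (21.1%), against 2.81% of tested genes, a spacing chosen after the positions were seen. The variant TTTAAA of the CHR element was in 9 of 38 members (23.7%), against 10.7% of tested genes and 13.2% of all windows.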
